A study of Mus musculus with 70 samples.

Results

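Panc02.3, a mouse pancreatic cancer cell line, was compared after exposure to interferon gamma (IFNg) and without stimulation (NS). The 6 libraries were those whose labels name this line with either state, 3 with IFNg and 3 NS, out of 70 libraries of 8 mouse cancer lines in the series. The line is labelled with a C57BL/6 genotype and was grown in serum-supplemented DMEM. The IFNg cultures received 100 ng per mL for 48 h, and the NS cultures neither cytokine. Another group of 3 libraries received 1000 activity units per mL of interferon beta (IFNb) for 48 h. For comparison between lines, IFNg and NS libraries of KPC.2, the other pancreatic line, and of B16.1, YUMMER1.7 (melanoma), CT26.2, MC38.7 (colorectal), LLC (lung) and Renca (renal) were used, 40 in all. Panc02 is a line derived from a chemically induced pancreatic ductal tumour of a C57BL/6 mouse. A cell line is a single population in culture, without the stroma and immune cells of a tumour. The labels do not mark the replicates as separate cultures, so the spread that enters the p-values may be technical only.

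IFNg binds a receptor made of Ifngr1 and Ifngr2 and activates the kinases Jak1 and Jak2. Their signal acts on gamma-activated sites in promoters of early genes, among them that of the transcription factor Irf1, and Irf1 and related factors then act through interferon-stimulated response elements. In tumour cells the pathway is known for raising antigen presentation, guanylate-binding proteins, chemokines and the checkpoint ligand Cd274 (PD-L1), and in many cell types for slowing growth.

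Total estimated counts were 5454068, 3184315 and 2703009 in the IFNg libraries, against 8530056, 6261596 and 12665956 in the NS libraries, so depth differed between the treatments. The floor of 3 counts in a library came to 0.569, 0.937 and 1.1 CPM (counts scaled to a common library size) with IFNg and to 0.356, 0.496 and 0.249 CPM in NS. Levels are CPM after scaling by trimmed mean of M-values, and a change of proportion among cells cannot be told apart from a change of RNA per cell. The IFNg profile correlated most with unstimulated Panc02.3 (Pearson's r = 0.950 across genes) and less with the unstimulated libraries of the other lines (0.778 to 0.857). Of 16 ductal and epithelial markers, Krt8 (695 CPM with IFNg and 945 CPM in NS), Krt18 (593 and 570 CPM) and Krt19 (904 and 612 CPM) were abundant and the duct transcription factor Sox9 was present, while Epcam, Cldn3, Cldn4 and Cftr had 0 counts in both groups. Pdx1, a pancreatic transcription factor, stood at 32.6 CPM with IFNg and 77.9 CPM in NS. The hormone genes Ins1, Ins2, Gcg and Ppy, the acinar enzymes Pnlip and Ctrb1 and the leukocyte markers Ptprc, Cd3e and Adgre1 had 0 counts with IFNg and in NS. Not all leukocyte markers were absent, since only 5 of the 18 listed had 0 counts in all 9 Panc02.3 libraries. Together the 18 summed to 131.0, 93.7 and 108.8 CPM with IFNg and 90.6, 82.0 and 90.4 CPM in NS. Of other cell type markers that could be tested, 2 epithelial markers rose and 2 fell of 16, 1 of 2 acinar, 1 of 3 endocrine and 2 of 8 melanocyte markers fell, 1 of 7 leukocyte markers rose and 2 fell, and none of 3 endothelial markers passed.

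A gene was called when its adjusted p was under 0.05 and its change at least 2-fold, while "rose" and "fell" are used of any change whose adjusted p was under 0.05. Of 16147 genes tested, IFNg called 3614 in Panc02.3: 1424 higher (8.82% of the genes tested) and 2190 lower (13.6%). Without the fold limit 3746 rose (23.2%) and 5109 fell (31.6%), and the median log2 fold change of all tested genes was -0.07. These shares are the background for every list below. They include genes kept for other lines that were low in Panc02.3 and can hardly pass. The 6 compared libraries fitted alone left 11313 genes to test, of which 1425 were called higher and 1609 lower. A background matched to the expression of each list was not computed. Groups without overlap were common: of the 16147 tested genes, 3679 had each IFNg library above each NS library and 5250 had each below. Rises and falls reached similar sizes, with 529 called genes higher and 805 lower by at least 4-fold and 115 higher and 128 lower by at least 32-fold. Because the IFNg libraries were shallower, the 9 Panc02.3 libraries were also thinned to the depth of the smallest, which gave 1546 genes called higher and 1767 lower; all 20 ribosome biogenesis genes and all 22 cholesterol genes described below passed in the same direction.

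**Figure D1:**
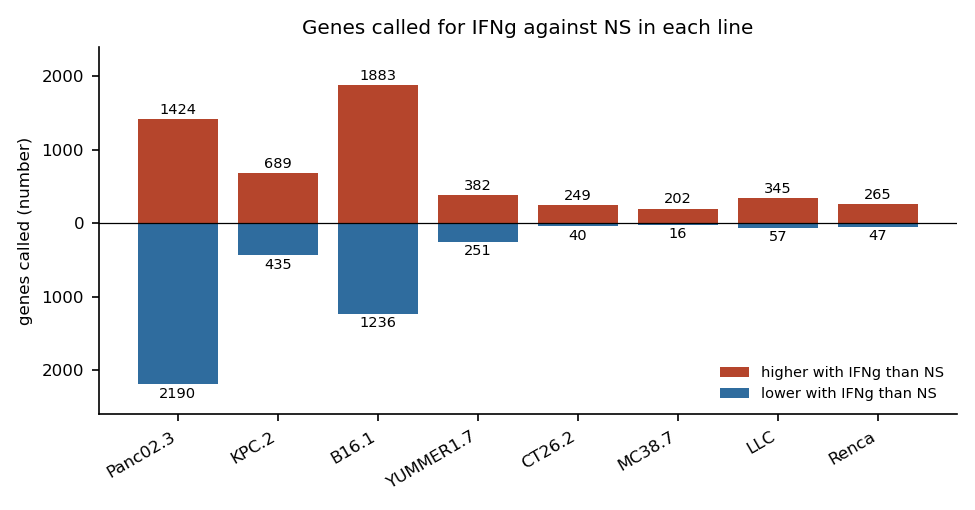
Number of genes called higher (upward bars) and lower (downward bars) with IFNg than in NS in each of the 8 lines, Panc02.3 at the left. Panc02.3 had 1424 higher and 2190 lower, KPC.2 689 and 435, B16.1 1883 and 1236, and the other lines 382 or fewer higher and 251 or fewer lower.

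Most of these genes were called in Panc02.3 and not in the same direction elsewhere. Of the 1424 genes higher, 73 were called higher in all 7 other lines, which share no library with Panc02.3, and 970 in none of them, of which 821 also passed the test of the difference from the mean effect of the other 7 lines. For the 2190 genes lower the numbers were 0 in all 7 others and 1720 in none, with 1358 past the test of the difference. Of all tested genes 19.8% passed that test higher and 26.6% lower. The 821 and 1358 genes were chosen by calls whose values enter that test, so their passing is not separate support. The share of all tested genes called in none of the other 7 lines was not counted. Without that share, the 970 and 1720 genes do not show that the calls are particular to Panc02.3. B16.1 was the line with most shared calls, 386 higher in both and 272 lower in both. Called in opposite directions were 290 genes lower in Panc02.3 and higher in B16.1, and 61 genes higher in Panc02.3 and lower in B16.1, where 1883 of all 16147 tested genes were called higher and 1236 lower in B16.1. KPC.2, the other pancreatic line, shared 270 higher and 137 lower, out of 689 called higher and 435 lower in KPC.2 among all 16147 tested genes.

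Iigp1 and Gbp2 were among the 10 largest rises with IFNg of genes with more than 10 counts in both groups. Iigp1, an immunity-related GTPase that attacks the vacuoles of intracellular parasites, had 1305, 1442 and 1456 CPM with IFNg and 1.90, 2.31 and 1.74 CPM in NS, a log2 fold change of 9.50 ± 0.15 (SE, adjusted p = 5.1e-48). Gbp2, a guanylate-binding protein, had 1197, 1107 and 1213 CPM with IFNg and 5.94, 4.79 and 6.14 CPM in NS, a log2 fold change of 7.67 ± 0.11 (adjusted p = 2.0e-51). In both genes each IFNg library lay far above each NS library. The other genes among these 10 were Tgtp1, Gbp6, Tgtp2, Mpeg1, Ifi206, Zbp1, AA467197 and Igtp, with log2 fold changes of 7.16 to 8.80. Mpeg1, a pore-forming protein best known from macrophages, reached 153.6 CPM with IFNg, against 0.817 CPM in NS. Tgtp1 and Tgtp2 are near-identical copies, as are several Gbp, Ifi200-family, Ifit3 and H2-Q genes, and the assignment of reads between such copies is uncertain.

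**Figure D2:**
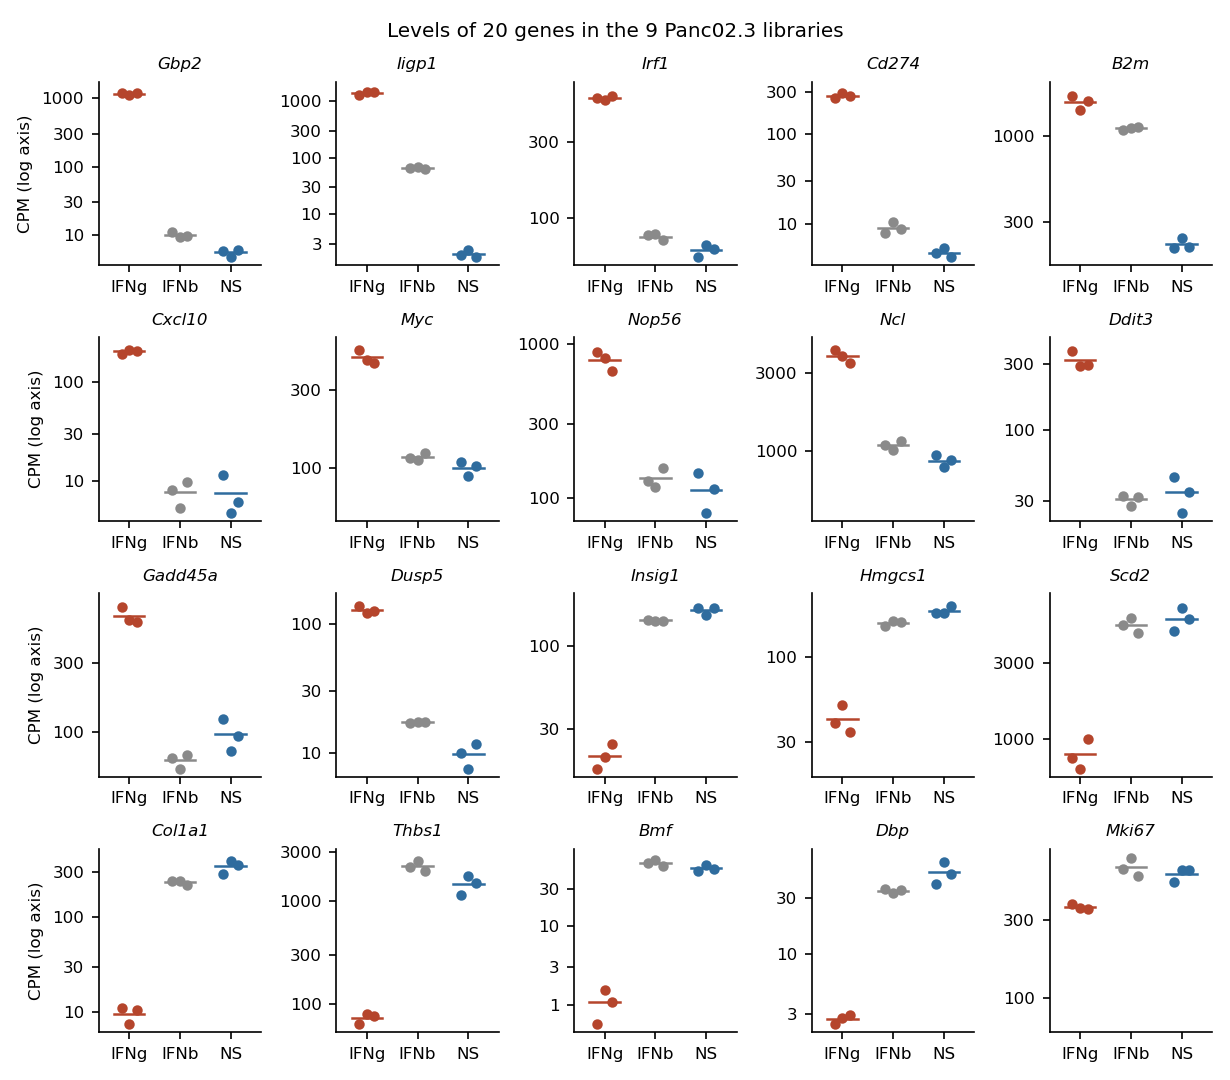
CPM (log axis) of 20 genes in the 9 Panc02.3 libraries with IFNg, with IFNb and in NS; points are libraries and lines are means. Iigp1, Gbp2, Cd274 and Myc lie higher, and Insig1, Col1a1, Thbs1 and Bmf lower, in each IFNg library than in any NS library.

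Genes of the receptor and of its signal were mixed. Of 17 genes, 9 rose and 5 fell, with a median log2 fold change of 0.62. Irf1 had 576, 559 and 589 CPM with IFNg and 56.7, 68.0 and 63.5 CPM in NS (log2 fold change 3.20 ± 0.06, adjusted p = 5.7e-44). Its groups did not overlap. Stat2 (3.31), Irf7 (2.66), Irf9 (1.98), Irf2 (0.99) and Jak2 (0.62) also rose on the log2 scale, and Batf2, a partner of Irf1, had 473 counts over the IFNg libraries and 1 over the NS libraries. The second receptor chain Ifngr2 had 26.9, 24 and 26.8 CPM with IFNg and 52.9, 53.6 and 48.6 CPM in NS (-0.98 ± 0.09, adjusted p = 1.2e-14). Tyk2, a kinase of the type I receptor, fell by 1.5 on the log2 scale, Ifnar1 by 0.59, Jak1 by 0.54 and the first chain Ifngr1 by 0.30. Irf8, an interferon-induced factor best known from myeloid cells, had 0 counts in the 9 Panc02.3 libraries.

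Among 13 feedback inhibitors 4 rose and 6 fell (median -0.22). Socs1, which blocks Jak kinases, had 20.5, 17.8 and 19.1 CPM with IFNg and 1.78, 0.827 and 1.66 CPM in NS (3.67 ± 0.25, adjusted p = 8.9e-20). Usp18, which removes Isg15 from proteins and blocks the type I receptor, rose by 3.53, Socs2 by 1.7 and the phosphatase Ptpn2 by 0.87. Socs3 had 33.2 CPM with IFNg and 39.1 CPM in NS and did not pass (adjusted p = 0.11). Pias3 (-2.06), Pias1 (-0.80), the phosphatase Ptpn1 (-0.97) and Ptpn6 (-2.84) were among those that fell.

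All 10 immunity-related GTPases (IRG) rose, with a median log2 fold change of 7.46 (8.09 without NS replicate 1), and so did 10 of 11 guanylate-binding proteins (GBP), with a median of 7.67, or 7.31 with genes of 3 or fewer counts in a group set to 3 counts. Irgm1, a regulator of the IRG family that was already present in NS at 59.5 CPM, stood at 751 CPM with IFNg. Gbp10 had 2545 counts over the IFNg libraries and 2 over NS, Gbp8 860 and 2, and Gbp11 81 and 0. Gbp2b had 0 counts in all 9 libraries. Promoter windows of 300 bases (RefSeq, GRCm38.p6, 250 bases before to 50 after a start site) were found for 12 of these 21 genes. Genes with a window were counted, and a gene with more than 1 window counted as a match if any of them matched. The core of the interferon-stimulated response element, GAAANNGAA on either strand, occurred in 11 of the 12 genes (91.7%). It occurred in 14.9% of the 1057 genes called higher, in 7.85% of the 1618 called lower and in 8.73% of all 11558 tested genes with a window. The gamma-activated site TTCNNNGAA occurred in 58.3%, 10.9%, 7.42% and 8.57% of the same sets. A match is a description of letters and not a measured binding site. Shown for the largest responses and for the early factor and inhibitor named above, with the motifs in capitals:
Igtp (chr11:58199306-58199605, plus strand, a gamma-activated site followed by a response element core): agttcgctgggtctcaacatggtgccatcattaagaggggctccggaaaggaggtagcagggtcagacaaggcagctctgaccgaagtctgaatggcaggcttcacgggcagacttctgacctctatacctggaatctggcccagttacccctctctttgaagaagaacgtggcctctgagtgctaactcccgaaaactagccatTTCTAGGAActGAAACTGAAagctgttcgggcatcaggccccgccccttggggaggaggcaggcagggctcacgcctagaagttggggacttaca
Gbp2 (chr3:142620413-142620712, plus strand, a response element core): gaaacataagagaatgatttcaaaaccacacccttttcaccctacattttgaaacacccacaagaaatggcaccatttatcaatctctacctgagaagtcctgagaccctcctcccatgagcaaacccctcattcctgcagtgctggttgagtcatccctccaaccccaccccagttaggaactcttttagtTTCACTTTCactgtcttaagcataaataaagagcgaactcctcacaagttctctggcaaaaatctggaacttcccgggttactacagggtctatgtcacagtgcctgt
Irf1 (chr11:53769764-53770063, plus strand, upstream of 2 annotated windows, a gamma-activated site): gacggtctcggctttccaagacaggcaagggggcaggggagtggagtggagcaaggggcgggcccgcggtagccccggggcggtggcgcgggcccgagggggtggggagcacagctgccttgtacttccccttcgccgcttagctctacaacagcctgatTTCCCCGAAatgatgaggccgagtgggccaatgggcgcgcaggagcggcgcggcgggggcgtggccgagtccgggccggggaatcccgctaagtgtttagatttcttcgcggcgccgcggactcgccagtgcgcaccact
Socs1 (chr16:10785487-10785786, minus strand, overlapping response element cores): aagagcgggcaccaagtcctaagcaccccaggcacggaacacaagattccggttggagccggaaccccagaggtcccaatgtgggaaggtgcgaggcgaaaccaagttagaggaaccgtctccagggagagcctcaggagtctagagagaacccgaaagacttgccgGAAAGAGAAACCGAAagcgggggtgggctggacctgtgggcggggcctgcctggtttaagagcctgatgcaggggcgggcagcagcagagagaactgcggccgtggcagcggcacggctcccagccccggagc

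Transcripts of most genes of antigen presentation by MHC class I rose. Of 12 genes, the class I chains and their activator, 11 rose (median 2.31), and of 13 genes that supply peptides 10 rose and 3 fell (median 2.04). B2m, the light chain, had 1757, 1444 and 1647 CPM with IFNg and 207, 238 and 209.8 CPM in NS (2.89 ± 0.07, adjusted p = 9.7e-42). H2-K1 had 408, 319 and 347 CPM with IFNg and 45.7, 70.6 and 57.3 CPM in NS (2.65 ± 0.09, adjusted p = 2.0e-32), and H2-D1 1483, 1225 and 1250 CPM with IFNg and 317, 330.0 and 324 CPM in NS (2.03 ± 0.06, adjusted p = 1.0e-35). The groups of these genes did not overlap. Nlrc5, the class I transactivator, rose by 3.53, the peptide transporter Tap1 by 5.69 and the immunoproteasome subunits Psmb9 by 7.89 and Psmb10 by 3.90, while Psmb8 had 433 counts over the IFNg libraries and 1 over NS. The 3 that fell were chaperones of the endoplasmic reticulum, Calr (-0.86), Pdia3 (-0.29) and Canx (-0.15). The tapasin gene Tapbp rose by 0.46, to 208 CPM with IFNg, against 151 CPM in NS.

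MHC class II genes rose to low levels. Of 11 tested genes 8 rose and 1 fell (median 3.23, or 4.08 without NS replicate 3), and of those that rose all but Cd74 averaged 5.77 CPM or less with IFNg. Their master activator Ciita had 2.27, 2.50 and 2.57 CPM with IFNg and 0.119, 0 and 0.166 CPM in NS, with 27 counts in all with IFNg and 3 in NS. Cd74, the invariant chain, had 39.8, 31.9 and 40.8 CPM with IFNg and 0.238, 0 and 0.0829 CPM in NS. H2-Aa reached 0.832 CPM, H2-Ab1 2.56 CPM and H2-Eb1 1.2 CPM with IFNg. The one that fell was the lysosomal reductase Ifi30 (-1.07).

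Antiviral effectors followed the same direction. Of 38, 35 rose and 2 fell (median 3.34). Ifit3, which binds viral RNA complexes, had 1396, 1315 and 1304 CPM with IFNg and 17.1, 22.3 and 15.7 CPM in NS (6.22 ± 0.13, adjusted p = 1.4e-43). Isg15, a ubiquitin-like modifier, had 704, 532 and 556 CPM with IFNg and 36.3, 40.3 and 29.3 CPM in NS (4.11 ± 0.11, adjusted p = 7.4e-38). Their groups were far apart. Mx2 rose by 6.15, Oas1g by 5.86 and Oas2 by 5.71. The 2 that fell belong to the family of membrane proteins that block virus entry, Ifitm1 (10.8 CPM with IFNg and 67.5 CPM in NS, -2.60) and Ifitm2 (63.7 and 182.7 CPM, -1.49), while their neighbour Ifitm3 rose by 0.80.

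Of 17 nucleic acid sensors and adaptors 12 rose and 3 fell (median 1.73). The Z-nucleic acid sensor Zbp1 had 297, 263 and 304 CPM with IFNg and 1.54, 2.98 and 1.08 CPM in NS (7.42 ± 0.15, adjusted p = 9.7e-42), and Cgas, the DNA sensor, rose by 2.35. Its adaptor Tmem173 (STING) went the other way, with 26.15, 28.1 and 26.8 CPM with IFNg and 57.6, 48.6 and 51.2 CPM in NS (-0.97 ± 0.10, adjusted p = 6.3e-12). The kinases downstream, Ikbke (-1.75) and Tbk1 (-0.59), fell as well.

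Among 13 checkpoint and immune evasion genes 9 rose and 2 fell (median 0.89). Cd274 had 256, 287 and 269 CPM with IFNg and 4.63, 5.29 and 4.23 CPM in NS (5.87 ± 0.11, adjusted p = 6.6e-45). Ido1, which degrades tryptophan, had 11.8, 10.6 and 8.82 CPM with IFNg and 0.119, 0.165 and 0.166 CPM in NS (6.03 ± 0.34, adjusted p = 1.1e-18). The poliovirus receptor family genes Pvr (0.89) and Nectin2 (0.87) and the phagocytosis inhibitor Cd47 (0.53) rose by less. Vsir (VISTA) had 1.52, 0.625 and 0.735 CPM with IFNg and 12, 16.2 and 14.3 CPM in NS (-3.73 ± 0.38, adjusted p = 1.6e-12). Pdcd1lg2, the second ligand of the same receptor as Cd274, had 0 counts in both groups.

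Chemokines and cytokines were split, with 8 of 21 rising and 5 falling (median 0.00). Leaving out members with 3 or fewer counts in both groups, and setting a single such group to 3 counts, gave a median of 0.69. Cxcl10, which attracts T cells, had 196, 216 and 207 CPM with IFNg and 11.6, 4.79 and 6.22 CPM in NS (4.75 ± 0.16, adjusted p = 1.6e-33), while Cxcl9, of the same receptor, reached 1.83 CPM with IFNg, against 0.150 CPM in NS, from 20 and 4 counts. Csf1 (1.51) and Lif (1.15), both abundant in NS, rose. Cxcl5 (-1.59), the stromal alarmin Il33 (-0.56) and the angiogenic factor Vegfa (-0.55) fell. Of 11 complement genes 5 rose and none fell (median 0.00, or 0.35 without IFNg replicate 1), led by C4b at 55.3 CPM with IFNg and 0.248 CPM in NS. With low counts treated in the same way as for the chemokines, the complement median was 1.52. Of 16 NF-kB subunits and targets 6 rose and 6 fell (median 0.11, which was -0.12 without IFNg replicate 2 and -0.05 without NS replicate 3). Ptgs2 (cyclooxygenase 2) was by far the most abundant of them, with 2230, 2582 and 3010 CPM with IFNg and 1070, 1085 and 1084 CPM in NS (1.27 ± 0.10, adjusted p = 1.1e-14), and Vcam1 fell by 2.82.

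Of 25 cell death genes 8 rose and 6 fell (median 0.07, with its sign changed without IFNg replicate 2). The inflammatory caspases Casp4 (3.74) and Casp1 (2.71), the BH3-only activator Bid (2.48) and the p53 target Bbc3 (1.11) rose. Bmf, a BH3-only protein that links loss of attachment to apoptosis, had 0.569, 1.56 and 1.1 CPM with IFNg and 50.1, 60.7 and 53.3 CPM in NS, the largest fall among genes with more than 10 counts in both groups (-5.77 ± 0.22, adjusted p = 1.0e-30). Its relative Bcl2l11 (Bim) fell by 1.0. Fas, the death receptor, had 2.32 CPM with IFNg and 3.51 CPM in NS and did not pass (adjusted p = 0.13).

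All 20 genes of the list of MYC and ribosome biogenesis rose, 17 of them by at least 2-fold, with a median log2 fold change of 2.14, against -0.07 over all tested genes. Myc, the transcription factor that drives growth genes, had 523, 456 and 440.0 CPM with IFNg and 109, 89.9 and 103 CPM in NS (2.24 ± 0.06, adjusted p = 1.1e-36). Nop56, a core protein of the box C/D particles that modify ribosomal RNA, had 889, 807 and 668 CPM with IFNg and 145, 79.5 and 113 CPM in NS (2.80 ± 0.12, adjusted p = 3.1e-29). Nucleolin, Ncl, had 4123, 3769 and 3414 CPM with IFNg and 936, 795 and 876 CPM in NS (2.12 ± 0.07, adjusted p = 1.3e-32). No group of these overlapped, and Ncl had the highest mean CPM of all genes called higher. In the 7 other lines the median of the list lay between -0.36 and 0.22. The difference from their mean effect passed for 20 of 20 genes, all higher in Panc02.3, where 19.8% of all tested genes passed higher and 26.6% lower in that test. The difference from KPC.2 also passed for 20 of 20, where 19.1% of all genes passed higher and 27.2% lower. Mxd4, a repressor that competes with Myc for its partner Max, had 4.36, 5.00 and 3.68 CPM with IFNg and 66.9, 96.4 and 89.2 CPM in NS (-4.26 ± 0.17, adjusted p = 1.0e-29), among the 10 largest falls.

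Of 18 subunits and factors of RNA polymerases I and III 13 rose and 3 fell (median 1.16). Polr1a, the largest subunit of polymerase I, had 269, 302 and 249 CPM with IFNg and 86.4, 68.4 and 78.6 CPM in NS (1.81 ± 0.08, adjusted p = 6.6e-29), and the initiation factors Rrn3 (1.39) and Ubtf (1.23) rose. Maf1, the repressor of polymerase III, had 46.6, 42.2 and 48.5 CPM with IFNg and 111, 105 and 117 CPM in NS (-1.28 ± 0.07, adjusted p = 1.3e-23). Of 24 genes of nucleotide and one-carbon synthesis 20 rose and 3 fell (median 0.92), led by Gart (1.75), Psph (1.62) and Umps (1.53), while Paics, of the same purine pathway as Gart, fell by 1.0. The E-box CACGTG, which Myc and Max and many other factors bind, occurred in 4 of the 15 genes of the ribosome list with a promoter window (26.7%). Over all tested genes with a window the share was 11.1%. It was similar, 4 of 14 genes (28.6%), for the cholesterol synthesis genes described below, which all fell. A window of 1 of the 4 genes of the ribosome list is shown, with the E-box in capitals:
Wdr43 (chr17:71615965-71616264, plus strand): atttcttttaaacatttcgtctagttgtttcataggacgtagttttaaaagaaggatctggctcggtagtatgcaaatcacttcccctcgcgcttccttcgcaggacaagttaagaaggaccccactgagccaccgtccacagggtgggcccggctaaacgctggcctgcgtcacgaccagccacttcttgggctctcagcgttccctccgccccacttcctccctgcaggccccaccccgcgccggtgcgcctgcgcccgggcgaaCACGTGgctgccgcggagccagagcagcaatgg

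Of 20 cytosolic aminoacyl-tRNA synthetases 15 rose and 3 fell (median 0.71). Wars, the tryptophan enzyme that IFNg is known to induce, had 1548, 1420 and 1396 CPM with IFNg and 199, 96.2 and 146 CPM in NS (3.29 ± 0.10, adjusted p = 1.2e-34). Rars rose by 2.35 and Farsb by 1.82, while Qars fell by 1.03 and Vars by 0.81. Stress genes under Atf4 or the unfolded protein response were mostly higher, with 11 of 18 rising and 5 falling (median 0.93). Ddit3 (CHOP) had 374, 293 and 298 CPM with IFNg and 45.0, 24.8 and 35.0 CPM in NS (3.19 ± 0.15, adjusted p = 2.8e-26). The chaperone Hspa5 (BiP) had 3634, 3184 and 3492 CPM with IFNg and 1145, 1098 and 1136 CPM in NS (1.61 ± 0.05, adjusted p = 1.9e-34). These groups did not overlap, yet other targets of the same response fell, Sdf2l1 by 1.26, Xbp1 by 0.77 and Hsp90b1 by 0.16. Ppp1r15a (GADD34), which reverses the stress-induced block of translation, had 820.4, 739 and 662 CPM with IFNg and 63.4, 41.7 and 51.3 CPM in NS, and its difference from the other 7 lines (log2 3.68 ± 0.12, adjusted p = 1.7e-34) was among the 5 largest of genes with more than 10 counts in every group.

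Every one of 22 cholesterol synthesis genes fell, 20 of them by at least 2-fold, with a median log2 fold change of -1.74. Insig1, which retains the sterol sensor in the endoplasmic reticulum and is itself a target of the sterol-responsive factor Srebf2, had 17.1, 20.3 and 24.3 CPM with IFNg and 173, 155 and 172 CPM in NS (-3.07 ± 0.10, adjusted p = 4.9e-34). Hmgcs1, an early enzyme of the pathway, had 39.4, 50.9 and 34.6 CPM with IFNg and 185, 185 and 204 CPM in NS (-2.20 ± 0.08, adjusted p = 1.1e-30). Mvd (-3.22), Mvk (-3.17), Lss (-2.67) and Srebf2 itself (-1.7) fell, and Sqle fell least (-0.70). No IFNg library reached the NS range in any of the 22, which also held for 5250 of all 16147 tested genes. The median of the list in the 7 other lines ran from -1.04, in B16.1, to 0.16. The difference from their mean passed for 20 genes, all lower in Panc02.3, where 26.6% of all tested genes passed lower. That from KPC.2 passed for all 22, also lower, where 27.2% of all tested genes passed lower. CCAAT, on either strand, occurred in all 14 of these genes with a promoter window and in 43.2% of all tested genes with a window. The sterol regulatory element TCACCCCAC occurred in a window of 1 of the 14 genes (7.14%) and in 0.718% of all. That window is shown with the element in capitals:
Hmgcs1 (chr13:119690101-119690400, plus strand): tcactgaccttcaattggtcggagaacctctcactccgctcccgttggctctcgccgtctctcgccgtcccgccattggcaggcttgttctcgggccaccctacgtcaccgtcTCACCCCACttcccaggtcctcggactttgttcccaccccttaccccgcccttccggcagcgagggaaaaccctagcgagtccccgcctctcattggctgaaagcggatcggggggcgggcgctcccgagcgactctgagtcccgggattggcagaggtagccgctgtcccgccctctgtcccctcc

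Fatty acid genes fell in part. Of 16, 11 fell and 1 rose (median -1.22). Scd2, a stearoyl-CoA desaturase and one of the most abundant transcripts of these cells, had 749.8, 647 and 996 CPM with IFNg and 4756, 6642 and 5630 CPM in NS (-2.83 ± 0.11, adjusted p = 2.3e-31). Acss2 (-2.77), Scd1 (-2.13), Acsl3 (-2.13) and Srebf1 (-1.80) fell, whereas the synthase Fasn, with 222, 269.8 and 221 CPM with IFNg and 284, 246 and 270.3 CPM in NS, did not pass (adjusted p = 0.12), nor did Acaca. Of 9 sterol export and storage genes 3 rose, Apoe (1.60), Soat1 (0.93) and Npc1 (0.81), and Nr1h2 fell by 1.54.

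**Figure D3:**
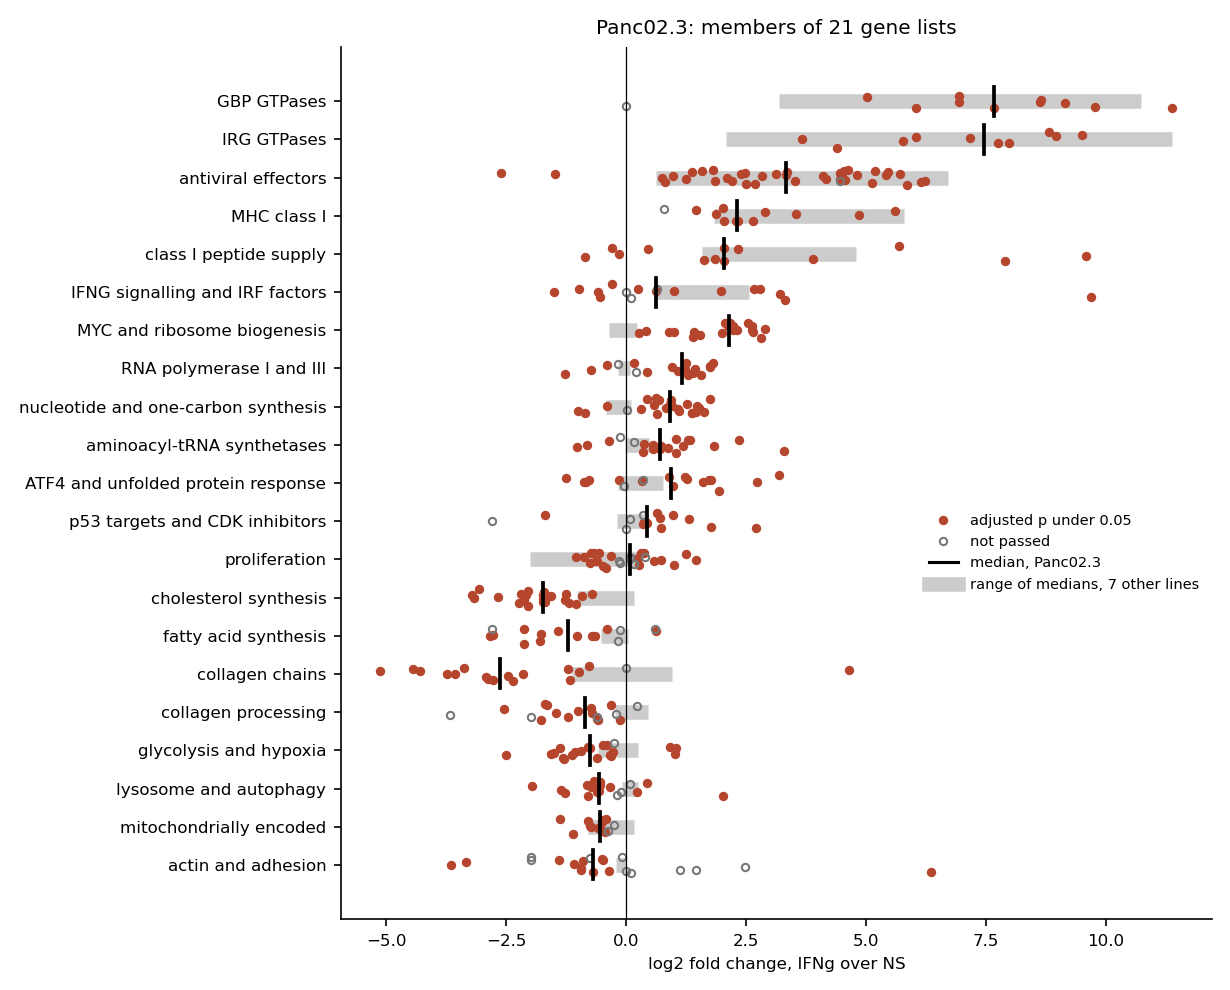
Log2 fold change, IFNg over NS, of the tested members of 21 gene lists in Panc02.3 (points; filled where the adjusted p was under 0.05), the median of each list (black line) and the range of its median in the 7 other lines (grey bar). Panc02.3 lies inside the grey range for GBP and IRG GTPases, antiviral effectors and MHC class I, above it for MYC and ribosome biogenesis (2.14) and below it for cholesterol synthesis (-1.74) and collagen chains (-2.63).

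Collagen chains had the lowest median of all lists. Of 18 collagen chains 16 fell and 1 rose (median -2.63, or -2.37 with genes of 3 or fewer counts in a group set to 3 counts). Col1a1, the main chain of fibrillar collagen I, had 11, 7.49 and 10.7 CPM with IFNg and 288, 394 and 355 CPM in NS (-5.12 ± 0.13, adjusted p = 6.4e-39), and Col6a1 19.9, 18.7 and 31.6 CPM with IFNg and 266, 324 and 309 CPM in NS (-3.73 ± 0.11, adjusted p = 4.7e-36). Col1a2, which normally pairs with Col1a1, was near 0 in both groups, with 1 count over the IFNg libraries and 20 over NS. The basement membrane chains Col4a1 (-1.18) and Col4a2 (-1.22) fell by less, and Col6a3 rose, with 14 counts over the IFNg libraries and 1 over NS. In other lines the median ran from -1.14 to 0.96. The difference from their mean passed for 11 chains, 10 of them lower in Panc02.3, and from KPC.2 for 9, 8 of them lower. Over all tested genes 26.6% passed lower in the first of these tests and 27.2% in the second. Of 18 collagen processing genes 13 fell and none rose (median -0.87), with Plod2 (-1.7), Bmp1 (-1.46) and P4ha2 (-1.0) among them. Serpinh1, the collagen chaperone, had 0 counts with IFNg and 4 in NS.

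**Figure D4:**
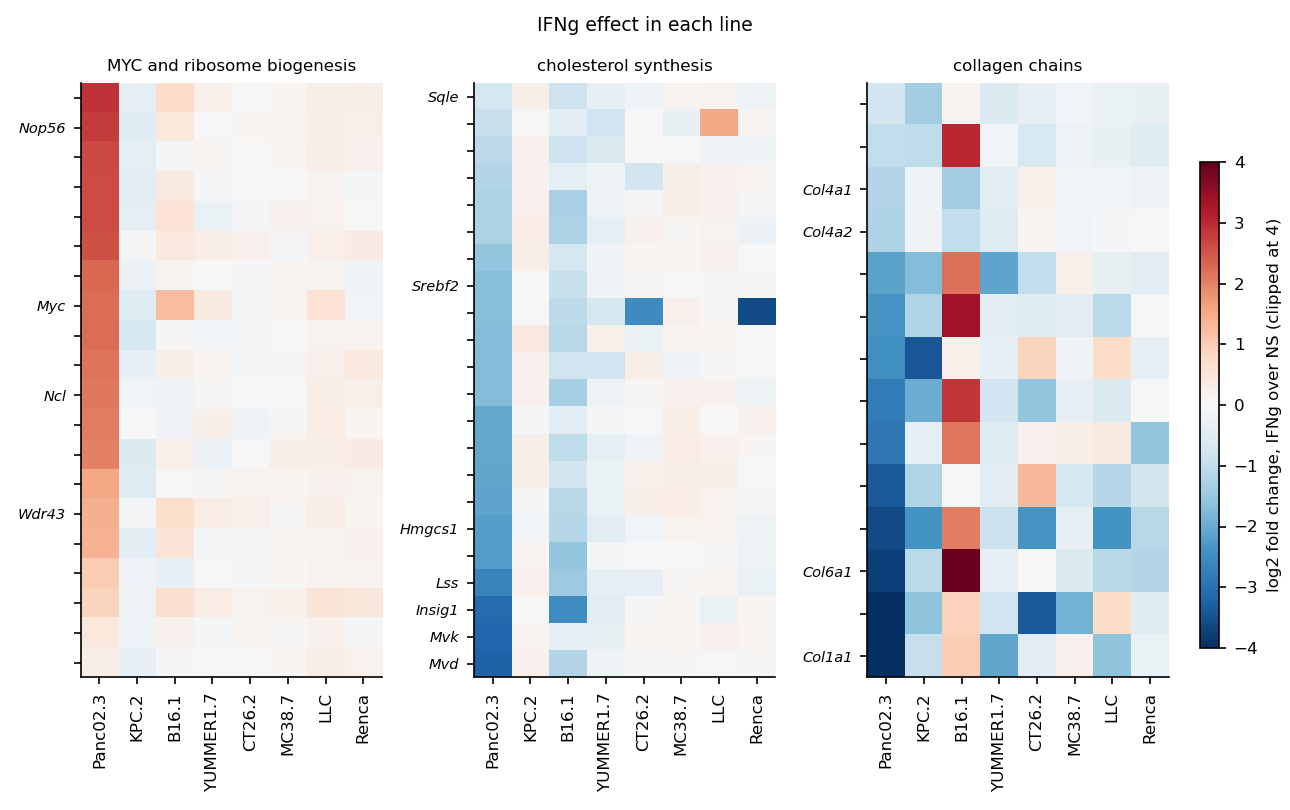
Log2 fold change, IFNg over NS, in each line (columns, Panc02.3 at the left) for members of 3 lists with more than 60 counts over the 6 Panc02.3 libraries (rows): 20 genes of MYC and ribosome biogenesis, 22 of cholesterol synthesis and 14 collagen chains, with names at some of the rows. The Panc02.3 column is red throughout the first list and blue throughout the other lists; colours of other lines for genes near 0 counts there rest on few reads.

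Of 22 other matrix genes 11 fell and 2 rose (median -1.19, or -0.41 without NS replicate 2). Thbs1 (thrombospondin 1), which activates TGF-beta and blocks vessel growth, had 62.7, 79.3 and 75.3 CPM with IFNg and 1162, 1756 and 1500 CPM in NS (-4.36 ± 0.14, adjusted p = 6.6e-35). Sparc, a collagen-binding glycoprotein, fell by 2.04, and fibronectin, Fn1, which stood at 10017 CPM in NS, fell by 0.94, while Lamb1 rose by 0.58. Of 18 matrix proteases and inhibitors 3 rose and 9 fell (median -0.75, or -0.44 without IFNg replicate 1): Plau, the urokinase, fell by 2.11 and its receptor Plaur rose by 1.94, and the inhibitor Timp3 rose by 2.98. Of 16 TGF-beta and YAP targets 3 rose and 10 fell (median -0.56), with Ccn2 (connective tissue growth factor) at 15.7, 13.7 and 16.5 CPM with IFNg and 135, 197 and 163 CPM in NS (-3.42 ± 0.14, adjusted p = 6.7e-28), but Ankrd1 rose by 1.02 and Ccn1 fell by 0.30. Of 21 actin and adhesion genes 11 fell and 1 rose (median -0.70, or -0.39 with the libraries thinned to 1 depth). Tns1 (-3.65), the integrin Itgb3 (-3.33) and vinculin, Vcl (-1.39), which sit at focal adhesions, fell, and the actin-binding Avil rose, with 44.3, 45.6 and 31.2 CPM with IFNg and 0.475, 0.165 and 0.664 CPM in NS (6.35 ± 0.27, adjusted p = 1.2e-28). Of 13 mesenchymal markers 6 fell and 1 rose (median -0.58, but -1.22 without IFNg replicate 1 and -1.50 without IFNg replicate 3), S100a4 by 3.65, Pdgfrb by 2.75 and Vim by 0.58.

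Targets of the ERK pathway diverged, 6 of 19 rising and 9 falling (median -0.19). Dusp5, a nuclear ERK phosphatase, had 136, 121 and 125 CPM with IFNg and 9.98, 7.61 and 11.8 CPM in NS (3.65 ± 0.12, adjusted p = 1.7e-32), and Etv5 rose by 1.77 and Fosl1 by 1.21. The immediate early gene Fos had 3.03, 1.25 and 4.78 CPM with IFNg and 26.0, 71.4 and 41.5 CPM in NS (-3.93 ± 0.32, adjusted p = 3.3e-16), and Egr1 fell by 1.38. Of 20 FOXO targets and quiescence genes 3 rose and 8 fell (median -0.16): Sesn3 fell by 2.51, Ccng2 by 1.93 and the CDK inhibitor Cdkn1b (p27) by 1.33, and Klf4 rose by 1.68. Clock genes were split, 5 of 15 rising and 6 falling (median -0.14). Dbp, a clock output factor, had 2.46, 2.81 and 2.94 CPM with IFNg and 40.03, 62.3 and 48.6 CPM in NS (-4.21 ± 0.20, adjusted p = 1.5e-26), and Per3 (-2.76), Per1 (-1.1) and Nr1d1 (-1.09) fell, whereas the repressors Ciart (2.21) and Cry1 (1.81) rose.

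Proliferation genes moved both ways. Of 27, 9 rose and 11 fell (median 0.07, or -0.03 without IFNg replicate 1). Genes of the G1 to S transition were among those that rose, Ccne1 by 1.46, Mcm2 by 1.24 and Ccnd1 by 0.99, and mitotic genes among those that fell, Ccnb2 by 1.05, Plk1 by 0.88 and Ccna2 by 0.77. Mki67 had 376, 356 and 347 CPM with IFNg and 509.7, 602 and 604 CPM in NS (-0.67 ± 0.12, adjusted p = 2.7e-06). The medians of other lines ran from -2.0 to 0.25, and by the test of the difference 14 genes were higher and 8 lower than in the mean of the other lines, while 7 were higher and 12 lower than in KPC.2. Over all tested genes 19.8% passed higher and 26.6% lower against the other lines, and 19.1% and 27.2% against KPC.2. Of 15 p53 targets and CDK inhibitors 10 rose and 1 fell (median 0.44). Gadd45a had 735, 601 and 581 CPM with IFNg and 123, 74.7 and 93.7 CPM in NS (2.71 ± 0.11, adjusted p = 2.0e-29), Mdm2 rose by 1.30 and Cdkn1a (p21) by 0.37, Cdkn2c fell by 1.69 and Cdkn2a had 0 counts in both groups.

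Energy metabolism and degradation genes were mostly lower. Of 21 glycolysis and hypoxia genes 17 fell and 3 rose (median -0.76). Gapdh had 3711, 2645 and 3983 CPM with IFNg and 6080, 8308 and 7327 CPM in NS (-1.07 ± 0.13, adjusted p = 2.0e-10), and Gpi1 (-1.30), Hk1 (-1.5) and the hypoxia-inducible Egln3 (-1.56) fell, while Hk2 rose by 0.91. Of 18 nuclear genes of the respiratory chain 13 fell and 2 rose (median -0.31), and of 13 mitochondrially encoded genes 11 fell (median -0.55). Mitochondrial transcripts took 1.66%, 1.39% and 1.46% of counts with IFNg and 1.56%, 2.22% and 2.33% in NS, so the first NS library lay within the range of the IFNg libraries. Of 20 lysosome and autophagy genes 14 fell and 3 rose (median -0.58). Tfeb, their transcription factor, fell by 1.97 and the protease Ctsd by 0.82, but the autophagy receptor Sqstm1 (p62) had 2241, 2277 and 1988 CPM with IFNg and 633, 446 and 525 CPM in NS (2.02 ± 0.07, adjusted p = 2.5e-34). Of 16 genes of secretory transport 9 fell and 2 rose (median -0.34), led by Creb3l2 (-2.02).

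Further large falls lay outside the lists. Nrep, a regenerating-neuron protein, had 7.2, 7.18 and 12.1 CPM with IFNg and 279.8, 312 and 305 CPM in NS (-5.15 ± 0.14, adjusted p = 1.5e-31). Fmo1, a flavin monooxygenase, had 2.65, 2.81 and 3.68 CPM with IFNg and 70.8, 90.4 and 91.2 CPM in NS (-4.83 ± 0.23, adjusted p = 2.0e-26). Jup (plakoglobin), a junction protein, had 9.10, 5.31 and 6.25 CPM with IFNg and 148, 139.5 and 142 CPM in NS (-4.30 ± 0.14, adjusted p = 4.3e-34). Gas7, Pappa2 and the chloride channel Ano1 completed the 10, with log2 fold changes of -4.93, -4.50 and -4.40. Genes lower with at most 10 counts over the IFNg libraries were led by Fmo4 (587 counts over NS and 1 with IFNg), Depp1, Ccn5, Rab3d and Stra6, the receptor for retinol-binding protein. Among genes with at most 10 counts over NS, Slfn2 had 167, 171 and 151 CPM with IFNg, with 8 counts over all NS libraries.

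The interferon-induced lists differed in how they compared with the other lines. Against the mean effect of the other 7 lines, 19.8% of all tested genes passed higher and 26.6% lower. Of 11 GBP genes 2 were higher and none lower, and of 10 IRG genes 1 was higher and 2 lower. These GBP and IRG counts did not exceed the shares over all genes in either direction. Of the 38 antiviral effectors 21 were higher and 6 lower than the mean of the others, with Ifit3 higher by 2.0 and Rsad2 by 2.09 on the log2 scale. Of 17 signalling genes 1 was higher and 10 lower, among them Irf1 by -0.68 ± 0.07 (adjusted p = 6.8e-13), and of 12 class I genes 3 were higher and 7 lower. The other lines were uneven. The class I median was 5.79 in B16.1, 3.72 in KPC.2 and 2.43 in LLC, against 2.31 in Panc02.3. It was lower, 1.83 to 2.18, in CT26.2, MC38.7, Renca and YUMMER1.7. The signalling median was 0.62 in Panc02.3 and ran from 0.60, in MC38.7, to 2.55, in B16.1. Cd274 was higher than the mean of the others by 2.10 ± 0.14 (adjusted p = 7.8e-20). Against KPC.2 alone, where 19.1% of all tested genes passed higher and 27.2% lower, 8 of 10 IRG genes were lower and none higher (median difference -1.65), 4 of 11 GBP genes were lower and 3 higher (-2.23), and 18 of 38 antiviral effectors were lower and 3 higher (-0.85). In the same comparison 8 of 12 class I genes, 10 of 13 peptide supply genes and 7 of 11 class II genes were lower and none higher, Tap1 by -4.50 and Nlrc5 by -5.46.

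**Figure D5:**
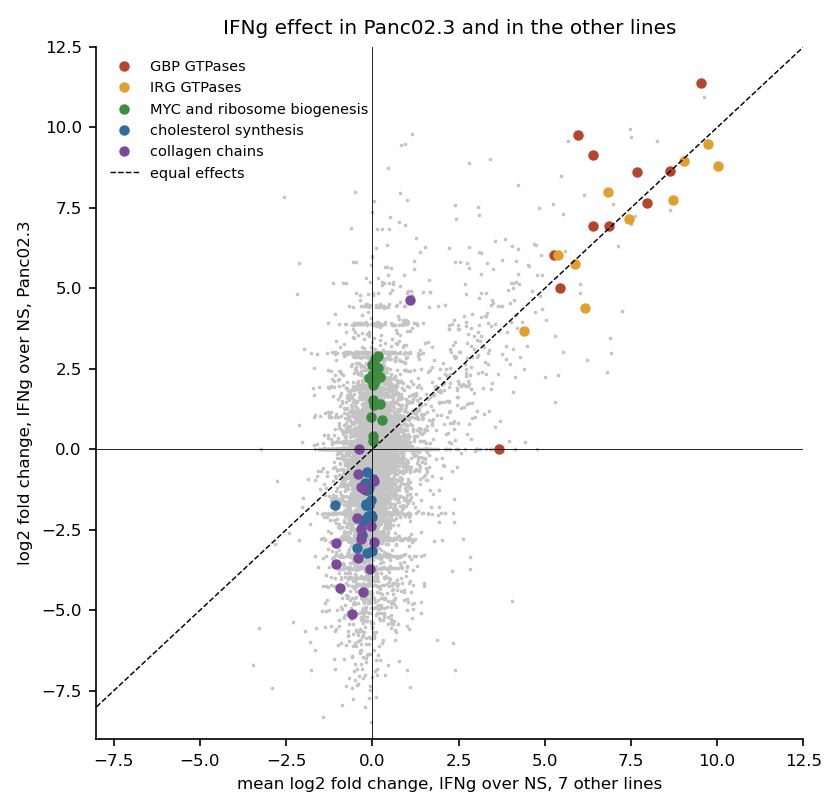
Each tested gene's log2 fold change, IFNg over NS, in Panc02.3 (vertical axis) and its mean over the 7 other lines (horizontal axis), with 5 lists in colour and a dashed line of equal effects. GBP and IRG genes lie along the line, apart from Gbp2b, which had 0 counts in Panc02.3; MYC and ribosome biogenesis genes lie above 0 and cholesterol genes below 0 on the vertical axis, and most of both lists lie near 0 on the horizontal axis.

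The 5 largest positive differences from the other 7 lines were those of Tenm4 (3.78), Ppp1r15a (3.68), the DNA helicase Recql4 (3.38), Cdsn (3.30) and the tRNA methyltransferase Trmt61a (3.05). The 5 largest negative ones were those of Bmf (-5.37), Thbs1 (-5.29), Fmo1 (-4.99), Dbp (-4.02) and Klhdc7a (-3.97). The log2 fold change of Bmf lay between -1.1 and 0.50 in the other lines. That of Thbs1 was 6.19 in B16.1 and lay between -0.75 and 0.98 in the remaining 6. Against KPC.2 the largest differences were positive for Il1rn (4.86), Slfn8 (4.79), Avil (4.54), Tenm4 (4.47) and Ugt2b34 (4.24) and negative for H2-Q7 (-6.24), Sema7a (-5.19), Bmf (-5.15), Fmo1 (-4.91) and Nod1 (-4.87). A gene at 0 counts in a group of another line has a fitted difference with a very large error and can hardly pass, as Ccn2 and Pdx1 here.

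IFNb at its dose changed far fewer genes in Panc02.3 than IFNg, 211 called against the same NS libraries, 174 higher and 37 lower, and the 2 comparisons share those libraries. Tested directly, IFNg against IFNb called 1317 genes higher and 2001 lower. At any size 22.6% of tested genes were higher and 30.4% lower with IFNg than with IFNb. All 22 cholesterol genes were lower with IFNg than with IFNb, as were 16 of 18 collagen chains, and 19 of 20 ribosome genes were higher. Gbp2 had 11.2, 9.45 and 9.84 CPM with IFNb, and was higher with IFNg by 6.86 on the log2 scale (adjusted p = 4.9e-50). B2m had 1090, 1118 and 1138 CPM with IFNb, between IFNg and NS, and differed from IFNg by 0.54. Irf7 had 297, 279 and 308 CPM with IFNb and was lower with IFNg by 1.19 (adjusted p = 1.2e-17). Among the largest differences between the cytokines, Nos2, the inducible nitric oxide synthase, had 88.5, 47.8 and 194.8 CPM with IFNg and 3.54, 2.73 and 1.03 CPM with IFNb (5.43, adjusted p = 1.5e-20), and Batf2, Apol10b, AA467197 and Gbp2 completed the 5 higher with IFNg. Bmf, Gas7, Nrep, Pappa2 and Thbs1 were the 5 lowest. The cytokines were given at single doses in different units, so the comparison is between these 2 treatments.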

How the data were processed

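Per the labels' protocols, RNA was extracted with RNeasy columns and made into directional libraries. Per the submitters' processing notes, the tools were Trimmomatic 0.36 for trimming and kallisto for quantification, with mm10 and GRCm38 named as builds; the kallisto version and the annotation are not given in the sources used here. Estimated counts for 35197 genes in 70 libraries were deposited by the authors as a single table, and its values are all whole numbers. The counts were fitted with edgeR 4.0.16 (quasi-likelihood test) in 1 model of 24 line-by-treatment groups, after filtering low genes (16147 left) and scaling by trimmed mean of M-values; p-values were adjusted by Benjamini-Hochberg over all tested genes. A fold change of 2 and an adjusted p of 0.05 defined a call, and 3 counts the floor. Standard errors were derived from the F statistic.

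Contrasts were IFNg against NS in Panc02.3, its difference from the mean IFNg effect of the other 7 lines and from that of KPC.2, and IFNg against IFNb. Replicate numbers did not pair libraries. The gene lists and members were chosen with earlier results of these data known. Named genes were the largest changes with more than 10 counts in both groups, the most abundant of the calls with at most 10 counts in a group, the most abundant calls, up to 4 genes of each list that passed the test and 2 that did not, fixed pathway genes, and the 5 largest differences in each direction; a few more list members were named after their values were seen. Some genes of these rules are not reported here. Alternatives were DESeq2 1.42.0, limma-voom (limma 3.58.1), other scalings and filters, a block for replicate number, a smaller set of libraries, each library left out, and, chosen after seeing the data, thinning to 1 depth. The edgeR procedure was tested on simulated data.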

Additional observations from a re-analysis of the deposited data

Results flagged for a closer look

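The effect of IFNg in Panc02.3 differed from the mean effect of the other 7 lines for 2714 genes and from the effect in KPC.2 for 3351 genes, by the test of the difference itself in edgeR. Against the other 7 lines the named genes were Tenm4 (3.78 on the log2 scale), Ppp1r15a (3.68), Recql4 (3.38), Cdsn (3.30), Trmt61a (3.05), Klhdc7a (-3.97), Dbp (-4.02), Fmo1 (-4.99), Thbs1 (-5.29) and Bmf (-5.37). Against KPC.2 they were Il1rn (4.86), Slfn8 (4.79), Avil (4.54), Tenm4 (4.47), Ugt2b34 (4.24), Nod1 (-4.87), Fmo1 (-4.91), Bmf (-5.15), Sema7a (-5.19) and H2-Q7 (-6.24). H2-Q7 had 11 counts with IFNg and 15 in NS in Panc02.3, so its difference rests on the change in KPC.2.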

How the results depend on the processing

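The count of genes higher in Panc02.3 than in the mean of the other 7 lines was 1002 with edgeR and 1709 with limma-voom, and the cause was not tested. All other counts of calls stayed within 1.5 times the reported ones under the alternatives run. Genes called lower with IFNg than in NS numbered 1609 when the 6 compared libraries were fitted alone, which left 11313 genes to test, against 2190. Replicate numbers did not pair the libraries (correlations of same-numbered deviations -0.019, -0.158 and -0.021), and the fit with a replicate block called 3537 genes for IFNg against NS, 2655 against the other lines, 3248 against KPC.2 and 3227 against IFNb. Of 4507 values of named genes, 4360 kept their side of the threshold, 73 lost and 74 gained it. No gene past the threshold changed sign, and 32 genes that had not passed did so in 72 of these values. Of 450 list medians, 366 moved by less than the spread between libraries, 81 were not below that limit, and 3 that had been larger than this spread changed sign: that of NF-kB subunits and targets without IFNg replicate 2 and without NS replicate 3, with a range of -0.1248 to 0.1211 over the libraries left out, and that of leukocyte markers without IFNg replicate 1, with a range of -1.9742 to 0.5866. The 81 include the median of endocrine markers, which stayed at 0 throughout. Medians within that spread of 0 also changed sign, those of proliferation (-0.0252 without IFNg replicate 1), cell death (-0.0071 without IFNg replicate 2) and acinar markers (-0.0727 without IFNg replicate 1, -0.1003 without NS replicate 2 and -0.138 thinned). Depth limits low genes: the smallest IFNg library has 2703009 counts, and floors cover counting error only.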
